A study of Drosophila melanogaster with 16 samples.

Results

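Cuticle protein genes encode the structural proteins of the insect exoskeleton, and here they comprise every gene whose symbol begins with Cpr or Lcp plus a digit, with Ccp84A, with Edg or with Twdl. The gene name table held 123 such symbols, of which 37 were called differentially expressed in at least 1 of the 4 deposited RNA-seq comparisons and 86 in none. Over all genes, 6774 were called in at least 1 comparison, with 8804 to 8934 genes tested in each. How many of the 86 were tested is not known. The comparisons were of L3 larval eye discs, the epithelium that forms the adult eye and head parts. The mutants were Ez731 and Suz12, both on the FRT2A chromosome, PH505 on FRT19A and Psc Suz2 1.b8 on FRT42D, and the controls were labelled wild type (WT) and carried FRT2A, FRT19A or FRT42D, so that mutants and controls alike carried an FRT recombination site. Ez731 and Suz12 share their control. Each of these 7 groups was 1 sample that stands for replicates 1 and 2 together, so no spread between replicates can be given, and the labels do not say how the mutant tissue was made or what share of the disc it was.

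The cuticle is laid down outside epithelial cells as chitin fibres bound by proteins. Most Cpr, Lcp and Ccp84A proteins, and some Edg proteins, carry the Rebers-Riddiford domain that binds chitin, and Tweedle (Twdl) proteins form a separate cuticle protein family. Different members are made at different stages, and pulses of the steroid hormone ecdysone time their expression. Polycomb group proteins keep developmental genes silent in 2 complexes: E(z) and Su(z)12 belong to PRC2, which methylates histone H3 at lysine 27, and Ph, Psc and Su(z)2 belong to PRC1.

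The deposited tables list only genes with an edgeR false discovery rate under 5%, which is the sense of "called", "rose" and "fell" throughout, and they give log2 fold and mean expression as log2 CPM, the read count scaled to library size. A gene missing from a table was either not called or not tested, so it cannot be read as unchanged, and how many of the 123 genes were tested is not known. All folds, log2 CPM and adjusted p-values below are those of the authors' deposited tables. Whether the replicates behind the p-values were separate animals or technical repeats is not stated, and reads from PCR without molecular identifiers are not independent molecules. From the fold and the mean, an approximate CPM was derived for each arm. For the 631 genes that the Ez731 and Suz12 tables share, the level derived for their common FRT2A control differed between the tables by a median of 0.0182 on the log2 scale, while the mutant levels differed by 0.315. The same levels bear on the direction of the folds, which the tables do not state. In the authors' deposited tables E(z) stood at a log2 fold of −0.99 in Ez731 and Psc at −3.94 in Psc Suz2 1.b8, Su(z)12 is not listed for Suz12, and ph-p and ph-d were higher in PH505 by 0.78 and 0.90. Read as mutant over control, the PH505 table gave FRT19A levels that differed from FRT42D levels by a median of 0.185 on the log2 scale over 1977 shared genes, whereas its mutant levels differed from FRT42D by 0.568. Against the FRT2A levels of the Suz12 table, over 729 shared genes, the PH505 mutant levels differed by 0.780 and the FRT19A levels by 0.300. All folds are given as mutant over control. Were the PH505 table to run the other way, every PH505 fold below, of cuticle protein genes, related genes and tissue markers alike, would change sign, its counts higher and lower would swap, and so would its mutant and FRT19A levels.

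In all 4 mutants most called cuticle protein genes were lower than in the control, with the PH505 table read as mutant over control. In Ez731, 0 members rose and 6 fell, where 3.46% of the 8934 genes tested rose and 6.41% fell. The number of genes tested was recovered from the deposited p-values and false discovery rates. In Suz12, 1 rose and 18 fell, where 5.89% of 8907 tested genes rose and 8.73% fell. In PH505, 2 rose and 12 fell, where 12.1% of 8804 tested genes rose and 14.6% fell. In Psc Suz2 1.b8, 5 rose and 27 fell, where 35.5% of 8886 tested genes rose and 33.9% fell. The share of called members that were lower was 100%, 94.7%, 85.7% and 84.4% in Ez731, Suz12, PH505 and Psc Suz2 1.b8, beside 65.0%, 59.7%, 54.7% and 48.9% of all genes called in each table. Median log2 folds of the called members were −1.22, −1.66, −1.97 and −3.19, beside −0.66, −0.53, −0.35 and 0.21 over all called genes.

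**Figure D1:**
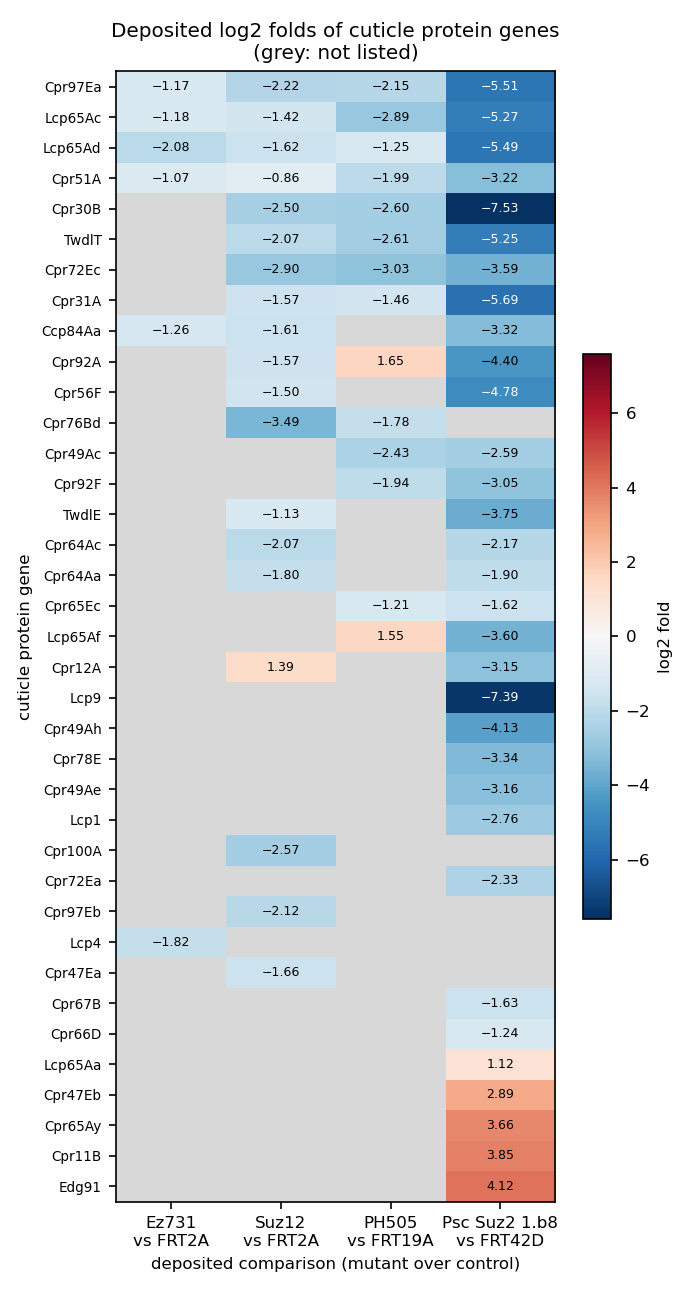
Deposited log2 folds (mutant over control, colour and printed value) of the 37 called cuticle protein genes (rows) in the 4 comparisons (columns), with grey where a gene is not listed. Blue (lower in the mutant) fills most cells, and the red cells are Cpr12A in Suz12, Cpr92A and Lcp65Af in PH505, and 5 genes in Psc Suz2 1.b8. Cpr30B and Lcp9 stood on the lowest step of derived mutant levels in Psc Suz2 1.b8, so their values there are not read as sizes.

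Most of these genes were weakly expressed in the eye disc. Their median log2 CPM was 2.30, 1.14, 1.13 and 0.75 in Ez731, Suz12, PH505 and Psc Suz2 1.b8, and only 1, 1, 1 and 0 of the called members reached the median of their table, which was 4.78, 4.74, 5.78 and 5.49. At low expression only large folds were called, so part of the contrast in medians goes with the level. Among genes under a log2 CPM of 2 alone, a limit chosen after the values were seen, members fell in 3 of 3, 12 of 12, 7 of 9 and 20 of 24 calls. Of all called genes in that range, 65.3% of 170, 67.3% of 245, 62.0% of 305 and 72.6% of 815 fell. The median log2 folds in that range were −1.82, −1.93, −1.46 and −3.15 for members and −1.44, −1.55, −1.12 and −1.82 for all called genes.

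**Figure D2:**
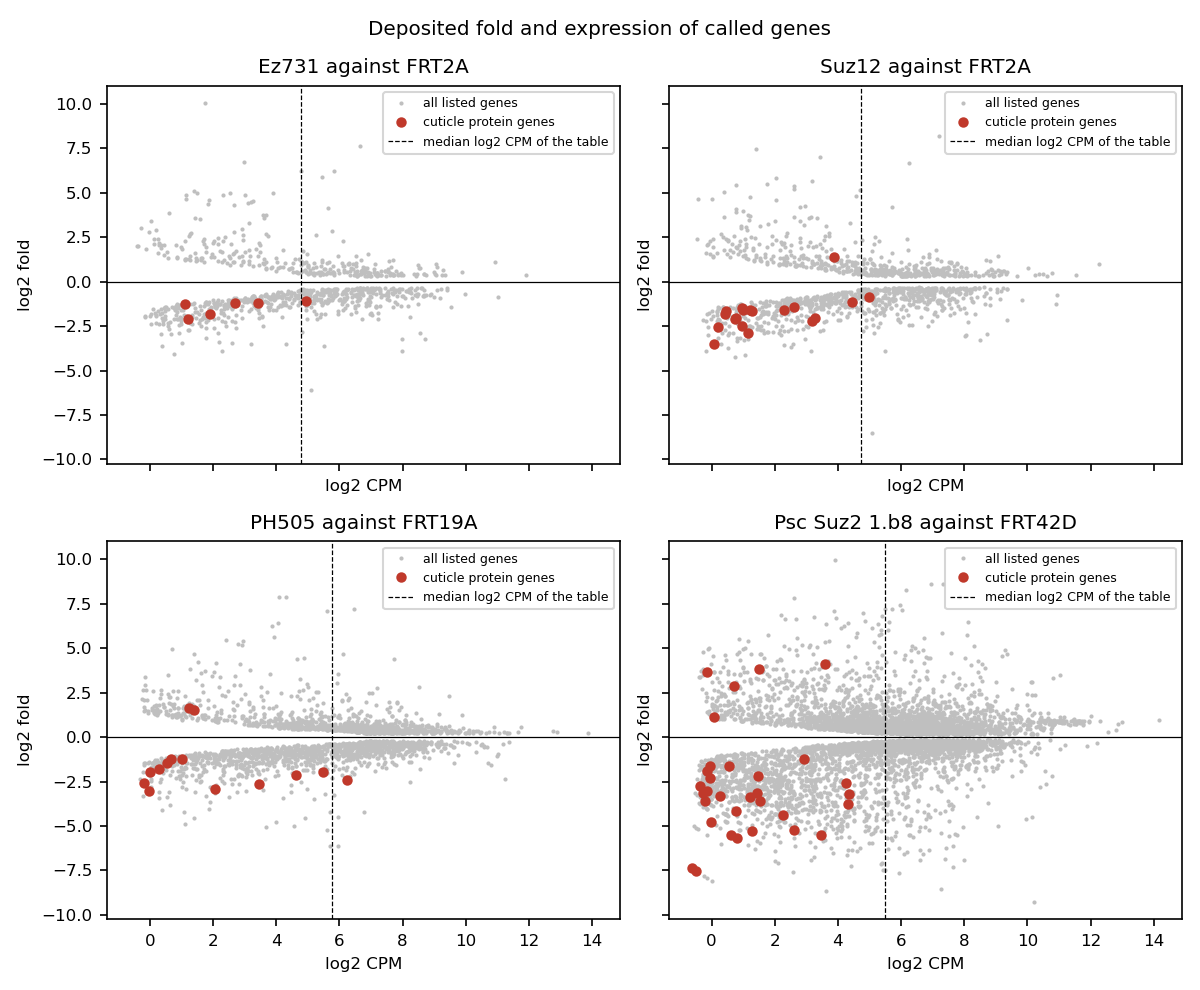
Deposited log2 fold (vertical) against mean log2 CPM (horizontal) for every called gene (grey) and for cuticle protein genes (red), 1 panel per mutant, with the median log2 CPM of the table dashed. The red points lie mostly below 0 and left of the dashed line, where the smallest called folds are larger than at high expression.

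The 4 genes called in all mutants were Cpr51A, Cpr97Ea, Lcp65Ac and Lcp65Ad, and each fell in all 4. Cpr51A (FBgn0033942), a Cpr family gene, had an approximate 19.8 CPM in Ez731 and 22.6 CPM in Suz12, against 41.8 and 41.2 CPM for FRT2A in these tables. It had 18.0 CPM in PH505 against 71.3 CPM in FRT19A, and 3.95 CPM in Psc Suz2 1.b8 against 36.8 CPM in FRT42D. Every mutant lay below every control for this gene, although each table was normalised separately. Its deposited log2 folds were −1.07, −0.86, −1.99 and −3.22 in Ez731, Suz12, PH505 and Psc Suz2 1.b8 (edgeR adjusted p = 2.66e-07, 2.02e-05, 4.73e-26 and 7.97e-66).

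Cpr97Ea (FBgn0039480), another Cpr gene, had 6.65 CPM in Ez731 and 3.19 CPM in Suz12, against 15.0 and 14.9 CPM for FRT2A. It had 9.03 CPM in PH505 against 40.1 CPM in FRT19A, and 0.478 CPM in Psc Suz2 1.b8 against 21.8 CPM in FRT42D. The mutants again lay below all controls, with deposited log2 folds of −1.17, −2.22, −2.15 and −5.51 (edgeR adjusted p = 0.000441, 9.27e-10, 6.83e-27 and 1.96e-68). Its neighbour Cpr97Eb was listed in Suz12 alone, at 0.622 CPM against 2.70 CPM in FRT2A (log2 fold −2.12, edgeR adjusted p = 0.00632).

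Lcp65Ac (FBgn0020642) and Lcp65Ad (FBgn0020641) are larval cuticle protein genes of the cluster at 65A. Lcp65Ac had 3.94 CPM in Ez731 and 3.31 CPM in Suz12, against 8.95 and 8.86 CPM for FRT2A. It had 1.00 CPM in PH505 against 7.45 CPM in FRT19A, and 0.123 CPM in Psc Suz2 1.b8 against 4.75 CPM in FRT42D. Its deposited log2 folds were −1.18, −1.42, −2.89 and −5.27 (edgeR adjusted p = 0.0084, 0.00137, 1.16e-09 and 4.67e-21), the largest of the 4 being that in Psc Suz2 1.b8. Lcp65Ad had 0.889 and 1.20 CPM in Ez731 and Suz12, against 3.74 and 3.68 CPM for FRT2A. It had 1.20 CPM in PH505 against 2.85 CPM in FRT19A, and 0.0668 CPM in Psc Suz2 1.b8 against 3.01 CPM in FRT42D. Its log2 folds were −2.08, −1.62, −1.25 and −5.49 (edgeR adjusted p = 0.000508, 0.00598, 0.00701 and 8.01e-15), so that of these 4 genes it alone had its smallest fold in PH505.

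**Figure D3:**
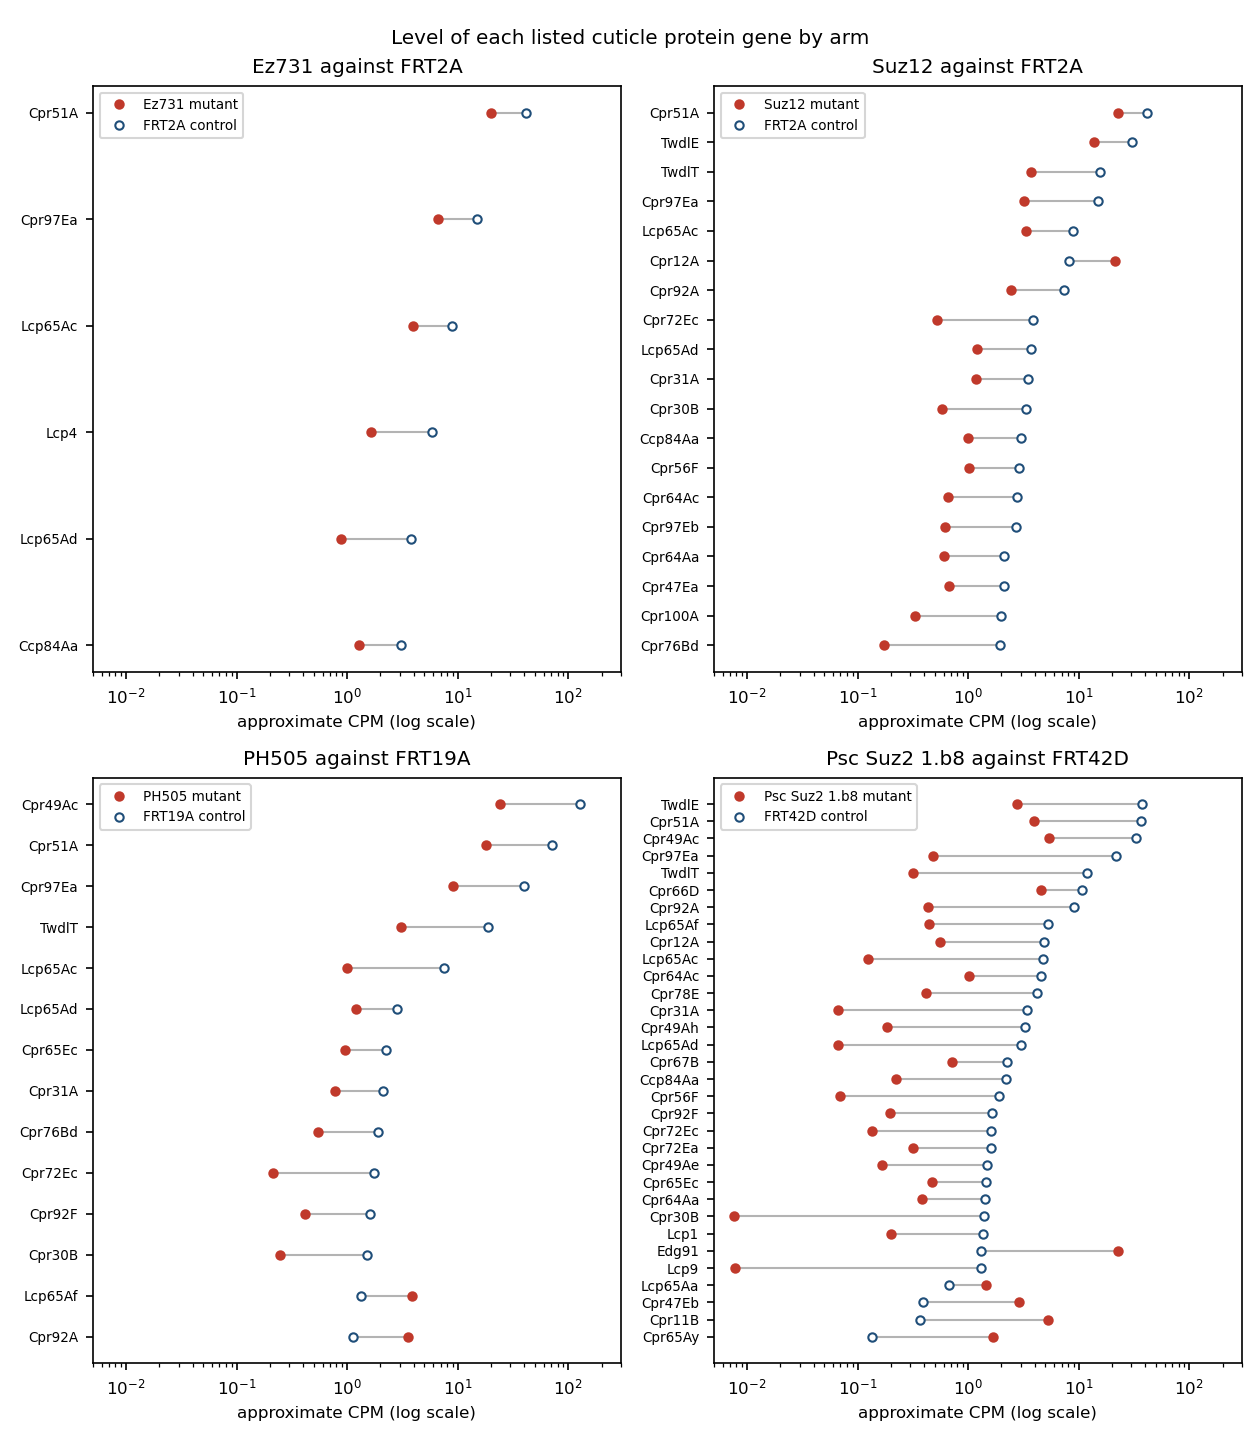
Approximate CPM (log axis) of each called cuticle protein gene in the mutant (filled red) and in its control (open blue), 1 panel per comparison, each point 1 sample that stands for 2 replicates. Mutant points lie left of control points for most genes, furthest in Psc Suz2 1.b8, where Cpr30B and Lcp9 stand at 0.0076 and 0.0077 CPM.

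A further 6 genes were called in 3 mutants, and all but Cpr92A fell in each of the 3. Among the 10 genes called in 3 or 4 mutants, the lowest fold was that of Psc Suz2 1.b8 in 10. Over all genes that Psc Suz2 1.b8 shared with Ez731, Suz12 and PH505, its fold was further from 0 in 80.2%, 82.2% and 80.8%. How many of all genes were called in 3 or 4 mutants was not counted. The 10 include Cpr30B, whose fold in Psc Suz2 1.b8 is not read as a size. Cpr31A and Lcp65Ad are also among them, with Psc Suz2 1.b8 levels near the floor of the derived levels. TwdlT (FBgn0029170), a Tweedle gene, had 3.70 CPM in Suz12 against 15.5 CPM in FRT2A, 3.10 CPM in PH505 against 19.0 CPM in FRT19A, and 0.316 CPM in Psc Suz2 1.b8 against 12.0 CPM in FRT42D. Its deposited log2 folds were −2.07, −2.61 and −5.25 (edgeR adjusted p = 9.04e-10, 2.40e-19 and 4.59e-33). Cpr72Ec, whose protein is a component of the corneal lens of the adult eye, had 0.520 CPM in Suz12 against 3.88 CPM in FRT2A, 0.213 CPM in PH505 against 1.74 CPM in FRT19A, and 0.134 CPM in Psc Suz2 1.b8 against 1.61 CPM in FRT42D. Its folds were alike in size, at −2.90, −3.03 and −3.59 on the log2 scale (edgeR adjusted p = 0.00682, 3.98e-05 and 2.29e-06).

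Cpr31A had 1.17 CPM in Suz12 against 3.45 CPM in FRT2A, 0.770 CPM in PH505 against 2.12 CPM in FRT19A, and 0.0659 CPM in Psc Suz2 1.b8 against 3.41 CPM in FRT42D (log2 folds −1.57, −1.46 and −5.69). Ccp84Aa, of the cuticle cluster at 84A, had 1.27 CPM in Ez731 and 0.992 CPM in Suz12 against 3.04 and 3.03 CPM for FRT2A, and 0.221 CPM in Psc Suz2 1.b8 against 2.20 CPM in FRT42D. Its deposited log2 folds were −1.26, −1.61 and −3.32 (edgeR adjusted p = 0.0328, 0.00417 and 5.06e-08).

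Cpr30B had 0.584 CPM in Suz12 against 3.31 CPM in FRT2A, and 0.248 CPM in PH505 against 1.5 CPM in FRT19A (log2 folds −2.50 and −2.60, edgeR adjusted p = 0.0426 and 0.00109). In Psc Suz2 1.b8 both Cpr30B and the larval cuticle gene Lcp9 stood on the lowest step of the derived levels, which 5 genes of that table share at 0.0072 to 0.0077 CPM, while the next genes start at 0.0375 CPM. A mutant arm without reads would give such a step once a prior count is added, and since read counts were not available here, the deposited folds of −7.53 for Cpr30B and −7.39 for Lcp9 are not read as sizes. Their FRT42D levels were 1.40 and 1.30 CPM. Further up, 12 genes lay at 0.0619 to 0.0698 CPM in Psc Suz2 1.b8, among them 3 members, Cpr31A, Lcp65Ad and Cpr56F. The sizes of the folds of these 3 members in Psc Suz2 1.b8 thus rest on levels near the floor.

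Cpr92A (FBgn0038714) moved in different directions. It had 2.45 CPM in Suz12 against 7.29 CPM in FRT2A, and 0.430 CPM in Psc Suz2 1.b8 against 9.06 CPM in FRT42D, a fall in both (log2 folds −1.57 and −4.40, edgeR adjusted p = 0.00015 and 2.04e-23). In PH505 it had 3.57 CPM against 1.14 CPM in FRT19A, a rise (log2 fold 1.65, edgeR adjusted p = 0.000579). The PH505 level lay under the FRT2A and FRT42D levels, and FRT19A was the lowest of the 3 controls, with the tables normalised separately. Lcp65Af, of the 65A cluster, likewise rose in PH505, with 3.90 CPM against 1.33 CPM in FRT19A (log2 fold 1.55, edgeR adjusted p = 0.000537). It fell in Psc Suz2 1.b8, with 0.439 CPM against 5.31 CPM in FRT42D (log2 fold −3.60, edgeR adjusted p = 5.65e-15). Its PH505 level was again under that of FRT42D.

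Cpr12A, on the X chromosome like Cpr11B, was the single member that rose in a PRC2 mutant. It had 21.4 CPM in Suz12 against 8.18 CPM in FRT2A (log2 fold 1.39, edgeR adjusted p = 0.00151). In Psc Suz2 1.b8 it had 0.553 CPM against 4.89 CPM in FRT42D (log2 fold −3.15, edgeR adjusted p = 9.82e-12). It is not listed for Ez731 or PH505.

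The 5 members that rose in Psc Suz2 1.b8 were listed in no other mutant. Edg91 (FBgn0004554), an ecdysone-dependent gene that encodes a pupal cuticle protein, had 22.6 CPM in the mutant against 1.30 CPM in FRT42D (log2 fold 4.12, edgeR adjusted p = 2.38e-59). Cpr11B had 5.31 CPM against 0.368 CPM, Cpr65Ay 1.69 CPM against 0.134 CPM and Cpr47Eb 2.90 CPM against 0.390 CPM, mutant against FRT42D (log2 folds 3.85, 3.66 and 2.89). Lcp65Aa rose least, with 1.46 CPM against 0.671 CPM (log2 fold 1.12, edgeR adjusted p = 0.0369). Each of the 5 lay at 1.30 CPM or less in FRT42D.

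Among the 27 that fell in Psc Suz2 1.b8, TwdlE and Cpr49Ac each fell in 1 other mutant as well. TwdlE, a Tweedle gene, had 2.76 CPM against 37.2 CPM in FRT42D (log2 fold −3.75, edgeR adjusted p = 9.98e-79), and in Suz12 it had 13.8 CPM against 30.1 CPM in FRT2A (−1.13, edgeR adjusted p = 3.51e-09). Cpr49Ac had 5.44 CPM in Psc Suz2 1.b8 against 32.7 CPM in FRT42D (log2 fold −2.59) and 24.0 CPM in PH505 against 129 CPM in FRT19A (−2.43, edgeR adjusted p = 3.52e-52). The fold of Cpr49Ac was alike in these PRC1 mutants, although its FRT19A level was well above its FRT42D level, with the tables normalised separately. Cpr66D, which like Cpr72Ec encodes a corneal lens protein, had 4.56 CPM in Psc Suz2 1.b8 against 10.8 CPM in FRT42D (log2 fold −1.24, edgeR adjusted p = 4.26e-05), the smallest of these 27 falls. Members that fell there and are not named above lay at 1.36 to 4.55 CPM in FRT42D, among them Cpr49Ah (−4.13), Cpr78E (−3.34) and Lcp1 (−2.76), a larval cuticle protein gene. Cpr56F, named above, had 1.92 CPM in FRT42D and a log2 fold of −4.78, with its mutant level near the floor. Cpr92F and Cpr65Ec fell in PH505 (−1.94 and −1.21, edgeR adjusted p = 0.00502 and 0.0287) and in Psc Suz2 1.b8 (−3.05 and −1.62, edgeR adjusted p = 7.90e-06 and 0.00326).

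In Suz12 the lowest folds were those of Cpr76Bd, Cpr72Ec and Cpr100A. Cpr76Bd had 0.172 CPM against 1.93 CPM in FRT2A (log2 fold −3.49, edgeR adjusted p = 1.35e-05), and in PH505 0.549 CPM against 1.89 CPM in FRT19A (−1.78, edgeR adjusted p = 0.00587). Cpr100A had 0.330 CPM in Suz12 against 1.97 CPM in FRT2A (log2 fold −2.57, edgeR adjusted p = 0.000214) and was listed in no other mutant. Of the members called in Ez731, Lcp4, a larval cuticle protein gene, was listed in no other mutant, with 1.66 CPM in Ez731 against 5.85 CPM in FRT2A (log2 fold −1.82, edgeR adjusted p = 0.00285). Ez731 and Suz12 share the FRT2A sample. For the genes listed in both the folds in Ez731 and Suz12 were −1.07 and −0.86 for Cpr51A, −1.17 and −2.22 for Cpr97Ea, −1.18 and −1.42 for Lcp65Ac, −2.08 and −1.62 for Lcp65Ad, and −1.26 and −1.61 for Ccp84Aa.

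PH505 and Psc Suz2 1.b8 have separate controls. They shared 13 called members, which is 92.9% of those in PH505 and 40.6% of those in Psc Suz2 1.b8, and 11 of the 13 went the same way. Over all genes they shared 1977 calls, 84.2% of those in PH505 and 32.0% of those in Psc Suz2 1.b8, with 87.8% in the same direction. The fold was further from 0 in Psc Suz2 1.b8 in 13 of the 13 members and in 80.8% of all shared genes. The 13 include Cpr30B, whose fold in Psc Suz2 1.b8 is not read as a size, and Cpr31A and Lcp65Ad, whose levels there lay near the floor. Suz12 and Psc Suz2 1.b8 shared 15 members, 78.9% of those in Suz12 and 46.9% of those in Psc Suz2 1.b8, beside 81.4% and 17.2% over all genes. Of these 15 members 14 went the same way, Cpr12A being the exception, as did 77.0% of all shared genes. Suz12 and PH505 shared 10 members, 52.6% of those in Suz12 and 71.4% of those in PH505, beside 55.9% and 31.0% over all genes. Of these 10 members 9 went the same way, Cpr92A being the exception, as did 81.6% of all shared genes. The shares of Suz12 members called in PH505 and Psc Suz2 1.b8 were thus near those over all genes. Ez731 and Suz12 shared 5 members, 83.3% of those in Ez731 and 26.3% of those in Suz12, beside 71.5% and 48.4% over all genes. None of these differences between members and all genes was tested. Between Suz12 and Psc Suz2 1.b8, Cpr64Ac and Cpr64Aa had nearly equal folds, at −2.07 and −2.17 for Cpr64Ac and −1.80 and −1.90 for Cpr64Aa.

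Calls in any mutant were counted by gene family. Of 70 Cpr genes 26 were called in any mutant, as were 7 of 17 Lcp genes, 1 of 7 Ccp84A genes, 1 of 3 Edg genes and 2 of 26 Tweedle genes. Cuticle protein genes often lie in tandem, and by their order in a Release 6 annotation 91 of the 120 members found there as protein-coding genes lay in 17 groups with at most 2 other genes between neighbours. Of these 91 genes 20 were called in any mutant, against 17 of the 29 that lay alone. No member was called of the 13 Tweedle genes from TwdlM to TwdlQ. Of the 8 genes from Edg84A to Ccp84Aa, the called one was Ccp84Aa. Over all genes, 6774 were called in at least 1 mutant, with 8804 to 8934 genes tested in each. These are counts of calls only, and no difference between families or groups was tested, since the number of tested genes in each is not known.

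The 65A cluster was the single tandem group with at least 4 called members, with 5 of 17 genes. Its members did not move as a block. In Psc Suz2 1.b8, Lcp65Ac, Lcp65Ad and Lcp65Af fell (−5.27, −5.49 and −3.60) while Lcp65Aa and Cpr65Ay rose (1.12 and 3.66). In PH505, Lcp65Ac and Lcp65Ad fell and Lcp65Af rose. At 47E, Cpr47Ea fell in Suz12 (−1.66, edgeR adjusted p = 0.0266) and its neighbour Cpr47Eb rose in Psc Suz2 1.b8 (2.89, edgeR adjusted p = 1.52e-07). Each was listed in that mutant alone, so these neighbours cannot be compared within a mutant.

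Other genes that build the cuticle were counted from lists of related genes, and Pcp, obst-A, qsm, Ddc, Blimp-1 and ftz-f1 are named from them after their values were seen. Of 10 further cuticle protein genes, 2 rose and 0 fell in Ez731, 1 rose and 1 fell in Suz12, 0 rose and 3 fell in PH505, and 1 rose and 6 fell in Psc Suz2 1.b8. Pcp, a pupal cuticle protein gene, rose in Ez731, with 10.4 CPM against 3.92 CPM in FRT2A, and in Suz12, with 15.8 CPM against 3.86 CPM (log2 folds 1.40 and 2.03). It fell in PH505, with 1.19 CPM against 4.01 CPM in FRT19A, and in Psc Suz2 1.b8, with 0.276 CPM against 2.84 CPM in FRT42D (−1.75 and −3.37). Vajk4, of a further cuticle protein family, fell in PH505 and Psc Suz2 1.b8 (−1.74 and −7.08). Its level in Psc Suz2 1.b8, 0.0632 CPM, lay near the floor of the derived levels. Crys, which encodes a lens protein of the adult eye, fell in PH505 and Psc Suz2 1.b8 (−1.57 and −3.78).

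Of 32 genes of chitin synthesis and remodelling, 1 rose and 9 fell in Ez731, 5 rose and 6 fell in Suz12, 4 rose and 10 fell in PH505, and 10 rose and 11 fell in Psc Suz2 1.b8. obst-A, which encodes a chitin-binding matrix protein, fell in all 4, with log2 folds of −0.82, −0.89, −1.01 and −2.93. The chitinase gene Cht10 rose in Suz12 (0.49) and fell in PH505 and Psc Suz2 1.b8 (−1.45 and −4.58). Cht5, another chitinase gene, rose in Ez731 and Suz12 (1.13 and 1.85) and fell in Psc Suz2 1.b8 (−3.29). Large rises in Psc Suz2 1.b8 were those of reb (3.90), listed in no other mutant, and Idgf6 (3.17). Idgf6 also rose in Suz12 and PH505 (0.83 and 0.65) and fell in Ez731 (−0.40). Of 14 genes of the apical matrix and zona pellucida proteins, 4 rose and 1 fell in Ez731, 1 rose and 3 fell in Suz12, 2 rose and 8 fell in PH505, and 2 rose and 7 fell in Psc Suz2 1.b8. In PH505 and Psc Suz2 1.b8, neo stood at −1.49 and −4.96 and nyo at −0.97 and −5.16, while qsm rose in all 4 (0.63, 0.76, 1.51 and 1.76). In Ez731, neo rose (0.47).

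Genes of cuticle tanning and pigment rose as well as fell. Of 19 such genes, 2 rose and 0 fell in Ez731, 3 rose and 0 fell in Suz12, 2 rose and 3 fell in PH505, and 7 rose and 5 fell in Psc Suz2 1.b8. yellow-b rose in all 4 (0.81, 1.43, 3.01 and 5.77 on the log2 scale). Ddc, which encodes the dopa decarboxylase of tanning, rose in Suz12, PH505 and Psc Suz2 1.b8 (1.97, 1.23 and 1.77).

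**Figure D4:**
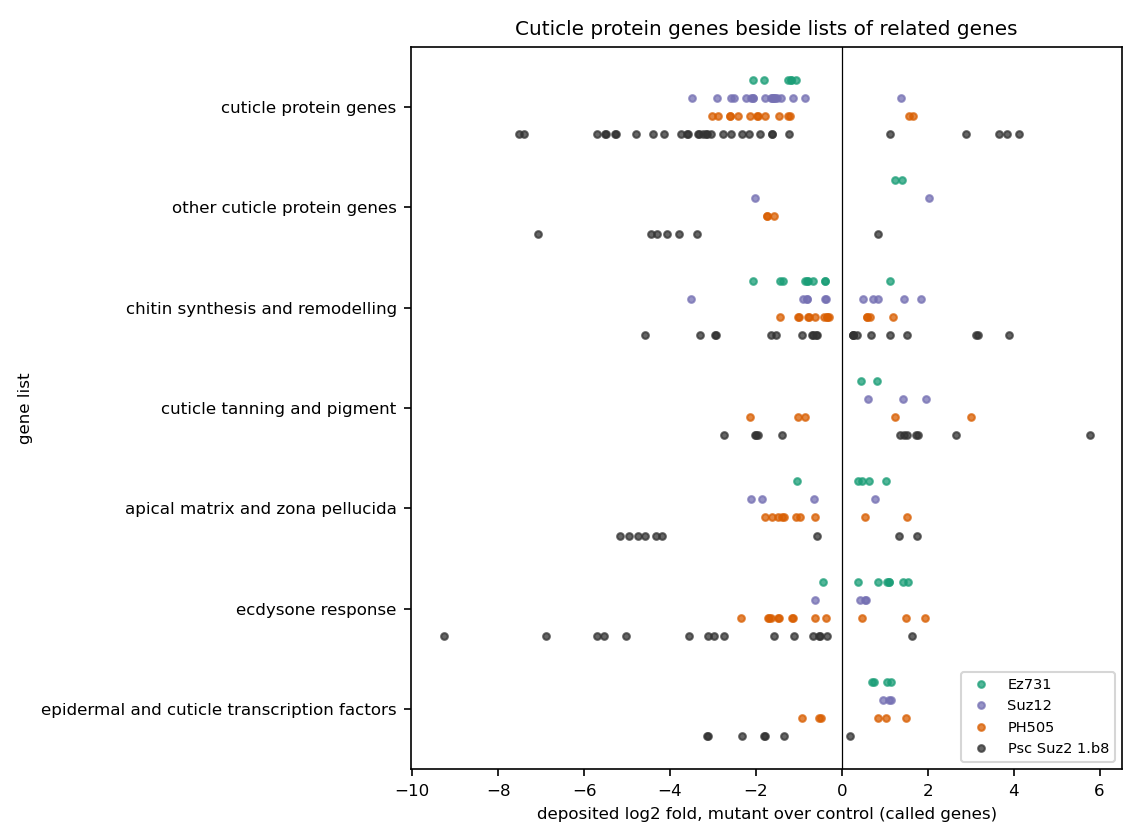
Deposited log2 folds (horizontal) of the called genes of each list (rows), coloured by mutant, with 1 point per gene. Cuticle protein genes lie mostly left of 0 in all 4 mutants, whereas the called ecdysone response genes lie mostly right of 0 in Ez731 and Suz12 and mostly left of it in Psc Suz2 1.b8 and in PH505, where turning the table would put 10 right and 3 left.

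The called ecdysone response genes were mostly higher in Ez731 and Suz12 and mostly lower in Psc Suz2 1.b8, and in PH505 mostly lower with its table read as mutant over control. Of 20 such genes, 7 rose and 1 fell in Ez731, 3 rose and 1 fell in Suz12, 3 rose and 10 fell in PH505, and 1 rose and 15 fell in Psc Suz2 1.b8. With the PH505 table turned, its counts would be 10 higher and 3 lower. Hr4, an ecdysone-induced nuclear receptor gene, stood at log2 folds of 1.54, 0.53, −1.13 and −5.53 in Ez731, Suz12, PH505 and Psc Suz2 1.b8. ImpE2, an ecdysone-inducible gene of the discs, stood at 1.09, 0.43, −2.34 and −9.27. The repressor gene Blimp-1 stood at 1.43, 0.57, −1.49 and −3.57. The member of that list that rose in Psc Suz2 1.b8 was ftz-f1 (1.64), a nuclear receptor gene of the prepupa, which also rose in PH505 (1.94). Of 10 epidermal transcription factor genes, 4 rose and 0 fell in Ez731, 3 rose and 0 fell in Suz12, 3 rose and 3 fell in PH505, and 1 rose and 6 fell in Psc Suz2 1.b8. grh, the grainy head gene of epidermal barriers, fell in PH505 and Psc Suz2 1.b8 (−0.49 and −1.81).

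Markers of the disc and of other tissues moved beside the cuticle protein genes. Of 10 eye disc markers, 0, 0, 1 and 1 rose and 10, 10, 8 and 9 fell in Ez731, Suz12, PH505 and Psc Suz2 1.b8, and their summed levels were 888, 624, 991 and 292 CPM in the mutants, against 1955, 1931, 1584 and 1885 CPM in the controls of the same tables. Fat body markers fell in 7 of 7 in Ez731, Suz12 and PH505, with summed levels of 417, 406 and 76.5 CPM in these mutants against 2990, 2951 and 611 CPM in their controls. In Psc Suz2 1.b8, 1 of 7 rose and 1 fell, at 56.9 CPM against 69.0 CPM. Of 8 muscle markers 0, 0, 0 and 1 rose and 5, 5, 7 and 5 fell, with sums of 349, 308, 74.6 and 195 CPM in the mutants against 742, 733, 228 and 372 CPM in the controls. The muscle marker that rose in Psc Suz2 1.b8, Mlc2, made up 161 CPM of that mutant sum and 72.7 CPM of the FRT42D sum. Of 7 hemocyte markers 1, 1, 1 and 6 rose and 4, 5, 3 and 0 fell, with sums of 685, 707, 707 and 2334 CPM against 649, 653, 612 and 484 CPM. Ppn rose in all 4 and made up 613, 591, 642 and 1999 CPM of these mutant sums. Its control levels were 413, 408, 485 and 394 CPM. The other listed hemocyte markers fell in Ez731, Suz12 and PH505.

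Trachea, which secretes cuticle and adjoins discs, had 0, 1, 1 and 5 of 6 markers higher and 1, 1, 1 and 0 lower, with sums of 297, 311, 262 and 3501 CPM in the mutants against 511, 513, 374 and 2619 CPM in the controls. Of these 6, Gasp, serp and verm also stand in the chitin list. Its regulator trh rose in Suz12, PH505 and Psc Suz2 1.b8 (1.33, 3.29 and 2.95). All 5 salivary gland markers fell in Psc Suz2 1.b8, with a sum of 5.42 CPM against 56.6 CPM, and none of them is listed for the other mutants. Sums cover listed markers only, and the part of these tissues in the falls and rises of cuticle protein genes was not tested. In whole discs, fewer cells that express a gene and less RNA per cell cannot be told apart.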

How the data were processed

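RNA-seq was compared in 4 deposited tables of L3 eye discs. Per the submitters' processing notes, edgeR 2.6.2 was used, beside Bowtie2 2.1.0.0 and TopHat2 2.0.8b, with build BDGP5. The sources used here do not give how replicates entered that test. Per the file headers, the values are log2 fold and log2 CPM, with each p-value and false discovery rate from the authors' edgeR test, as deposited. No test was added. Read depth is unknown.

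Symbols came from a table of gene identifiers, which lacked 43, 72, 136 and 289 identifiers of Ez731, Suz12, PH505 and Psc Suz2 1.b8. The number of genes tested is the false discovery rate times rank over p. Arm levels take the mean CPM as the average of 2 arms of equal weight. Both derivations were run on data simulated under the same assumptions, including equal weight of the arms. That run could not check whether those assumptions hold for the deposited values. Members, lists and tests were chosen with earlier results of these data known. Named genes were members called in 3 or 4 tables, the 5 highest and 5 lowest folds per table, the tandem groups with at least 4 called members, genes with opposite directions, and at most 5 per related list, those with the largest folds. A few further genes were chosen after their values were seen. Gene order came from a Release 6 annotation, used for neighbours only. Region lists and sequences were not used here. Alternatives were a 1% false discovery rate, a log2 fold of at least 1, expression at or above the table median, a narrower and a wider symbol rule, and a turned PH505 table. Computation used Python 3.11.15, numpy 2.4.6, pandas 2.3.3 and matplotlib 3.10.9.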

Additional observations from a re-analysis of the deposited data

Results flagged for a closer look

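Cuticle protein genes called in opposite directions in different mutants were Cpr12A, Cpr92A and Lcp65Af, and for each the difference between mutants was not tested. Cpr12A had a deposited log2 fold of 1.39 in Suz12 and −3.15 in Psc Suz2 1.b8. Cpr92A had −1.57 in Suz12, 1.65 in PH505 and −4.40 in Psc Suz2 1.b8. Lcp65Af had 1.55 in PH505 and −3.60 in Psc Suz2 1.b8. Each arm was 1 sample that stands for 2 replicates. With the PH505 table turned, Cpr92A and Lcp65Af would be lower in every table that lists them. The 12 members read as lower in PH505 would then be higher there and lower in every other table that lists them.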

How the results depend on the processing

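Of 63 values recomputed under alternatives, 46 stayed within 1.5 times of the reported one, 16 moved further and 1 reversed. With members limited to those whose log2 CPM reached the table median, members lower were 1, 1, 1 and 0 in Ez731, Suz12, PH505 and Psc Suz2 1.b8 and members higher 0 in each, and the median fold in Suz12 was −0.86. With symbols beginning with Cpr plus a digit alone, 2 were lower in Ez731, 1 was higher in PH505 and 3 were higher in Psc Suz2 1.b8. With the other cuticle protein genes added, 2 were higher in Ez731 and 2 in Suz12. With the PH505 table turned, 12 were higher and 2 lower, the median fold was 1.97, and the PH505 counts and folds of related genes and tissue markers would turn likewise. With log2 CPM taken as the mean of the log2 arm levels, the FRT2A levels of the shared tables differed by a median of 0.0502 in place of 0.0182. A 1% false discovery rate left out 1, 2, 1 and 1 members and a log2 fold of at least 1 moved no count or median past 1.5 times. Depth is unknown, so the precision of members with low CPM cannot be given. No paired analysis was possible because each group is 1 sample with no values per replicate, and for the same reason no replicate could be left out.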

Other observations

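The median difference between control lines was larger for cuticle protein genes than for all genes called in both comparisons, but not at low expression. Approximate levels in FRT19A and FRT42D differed by a median of 0.658 on the log2 scale over 13 shared members, beside 0.185 over all 1977 shared genes. FRT2A (from the Suz12 table) and FRT42D differed by 0.551 over 15 members, beside 0.213 over 1061 genes, and FRT2A and FRT19A by 0.748 over 10 members, beside 0.300 over 729 genes. Among genes under a log2 CPM of 2 in both tables, the median differences were 0.118 for 7 members and 0.385 for 130 genes between FRT19A and FRT42D, 0.573 for 8 members and 0.586 for 94 genes between FRT2A and FRT42D, and 0.706 for 5 members and 0.817 for 53 genes between FRT2A and FRT19A. In that range the members' median difference was the smaller one in each pair of controls. The tables were normalised separately and these differences were not tested.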
